A study of Setaria italica with 18 samples.

Results

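The 7 genes described here were grouped as the main enzymes of the C4 photosynthesis pathway in leaves of foxtail millet (*Setaria italica*). They were 7 of the 29108 genes in the expression table. All were chosen with earlier results of these data known, so counts of called members beside shares of all genes are a description and no test. The genes of pyruvate, phosphate dikinase 1 (PPDK1), chloroplastic carbonic anhydrase and phosphoenolpyruvate carboxylase 1 (PEP1) were listed by their identifiers. The other 4 were chosen by a measured value, the highest mean FPKM over the 18 libraries, among the genes annotated as NADP-dependent malic enzyme (NADP-ME), NADP-dependent malate dehydrogenase (NADP-MDH), phosphoenolpyruvate carboxykinase (PEPCK) and phosphoenolpyruvate carboxylase kinase (PEPC kinase). FPKM are fragments counted on a gene, scaled to its length and to the gene-assigned fragments of the library, so they are levels per length. PEPC kinase regulates phosphoenolpyruvate carboxylase and is not itself a step of the cycle. Over all libraries, PEPC kinase and PEPCK averaged far fewer FPKM than the other members.

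In C4 plants, carbon dioxide is first fixed in the mesophyll cells of the leaf and is then released next to Rubisco in the bundle sheath cells around the veins. Carbonic anhydrase turns carbon dioxide into bicarbonate, PEPC joins it to phosphoenolpyruvate, and PEPC kinase phosphorylates PEPC, which makes it less sensitive to inhibition by malate. NADP-MDH reduces the oxaloacetate to malate in the mesophyll chloroplasts, NADP-ME releases carbon dioxide from malate in the bundle sheath chloroplasts, and PPDK makes phosphoenolpyruvate again from pyruvate. PEPCK is a second enzyme that can release carbon dioxide from a C4 acid, and it also acts in the synthesis of sugars from organic acids. Foxtail millet belongs to the NADP-ME type of C4 plants.

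B175, a salt-sensitive variety, and JK3, a salt-tolerant one, were treated as seedlings with 75% artificial seawater, and leaves were sampled at 0, 12 and 24 h. The groups were B0 (B175 before treatment), B12 and B24 (B175 after 12 and 24 h), and J0, J12 and J24 (the same times in JK3), with 3 biological replicates each. The 2 varieties differ in their whole genetic background, and leaves from 12 or 24 h in distilled water were not analysed here. The seedlings grew under 12 h of day and 12 h of night, and the clock times of sampling are not given in the sources used here. If all treatments began at the same hour, the 12 h samples lie at the opposite point of the day and night cycle from the 0 and 24 h samples. Time in seawater and time of day cannot be told apart. Fewer mesophyll or bundle sheath cells and less RNA per cell also cannot be told apart in whole leaves.

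The libraries held 34738632 to 38798905 gene-assigned fragments, and the fewest fragments on any of the 7 genes in any library were 1529, on the PEPC kinase gene. Counting error is therefore small against the spread between replicates. The leaf label was checked by markers: the summed FPKM of the 14 chlorophyll a-b binding protein genes was 20238 to 26481 in B0, while that of the 3 Casparian strip (root) genes was at most 1.18 in any library. MADS-box (flower) genes summed to 514 to 763 FPKM over the 18 libraries and seed storage protein genes to 29.5 to 135. Across genes, B24 replicate 2 correlated with the B0 libraries (mean r = 0.94) about as closely as with the other B24 libraries (0.94). The other 2 B24 libraries had a mean r of 0.88 and 0.90 with B0 and 0.96 within B24. The 0.96 averages over replicate 2 as well, so it lies below the r of these 2 libraries with each other. The results at 24 h in B175 that turn on B24 replicate 2 are given with and without it.

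The levels by which 4 of the members were chosen are a description and were not tested. Their mean FPKM over all libraries was 2352 for NADP-ME (Seita.5G134300, chromosome 5), 1134 for NADP-MDH (Seita.6G251800, chromosome 6), 119 for PEPC kinase (Seita.1G239600, PPCK1, chromosome 1) and 90.9 for PEPCK (Seita.9G465500, chromosome 9). The next gene of each description was far lower, with 213 for the malic enzyme Seita.5G301800, 60.1 for the malate dehydrogenase Seita.2G137100 and 3.49 for the PEPC kinase Seita.1G358900, and PEPCK had no other gene. The listed genes had a mean FPKM of 6659 (PPDK1, Seita.3G247900.v2.2, chromosome 3), 4684 (carbonic anhydrase, Seita.5G240000.v2.2, chromosome 5) and 4186 (PEP1, Seita.4G175200.v2.2, chromosome 4). The chromosome is the number before the G in the identifier.

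Before treatment the C4 genes stood among the most abundant transcripts of the leaf. PPDK1 held rank 1 to 3 of all genes in the 6 libraries of B0 and J0, carbonic anhydrase and PEP1 held ranks 2 to 9, and NADP-ME ranks 9 to 18. NADP-MDH lay at ranks 55 to 68. The regulatory PEPC kinase lay at ranks 1087 to 3029 and PEPCK at 1122 to 5220. Together the 7 genes took 6.69% to 8.12% of all fragments in B0 and 5.93% to 6.14% in J0.

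**Figure D1:**
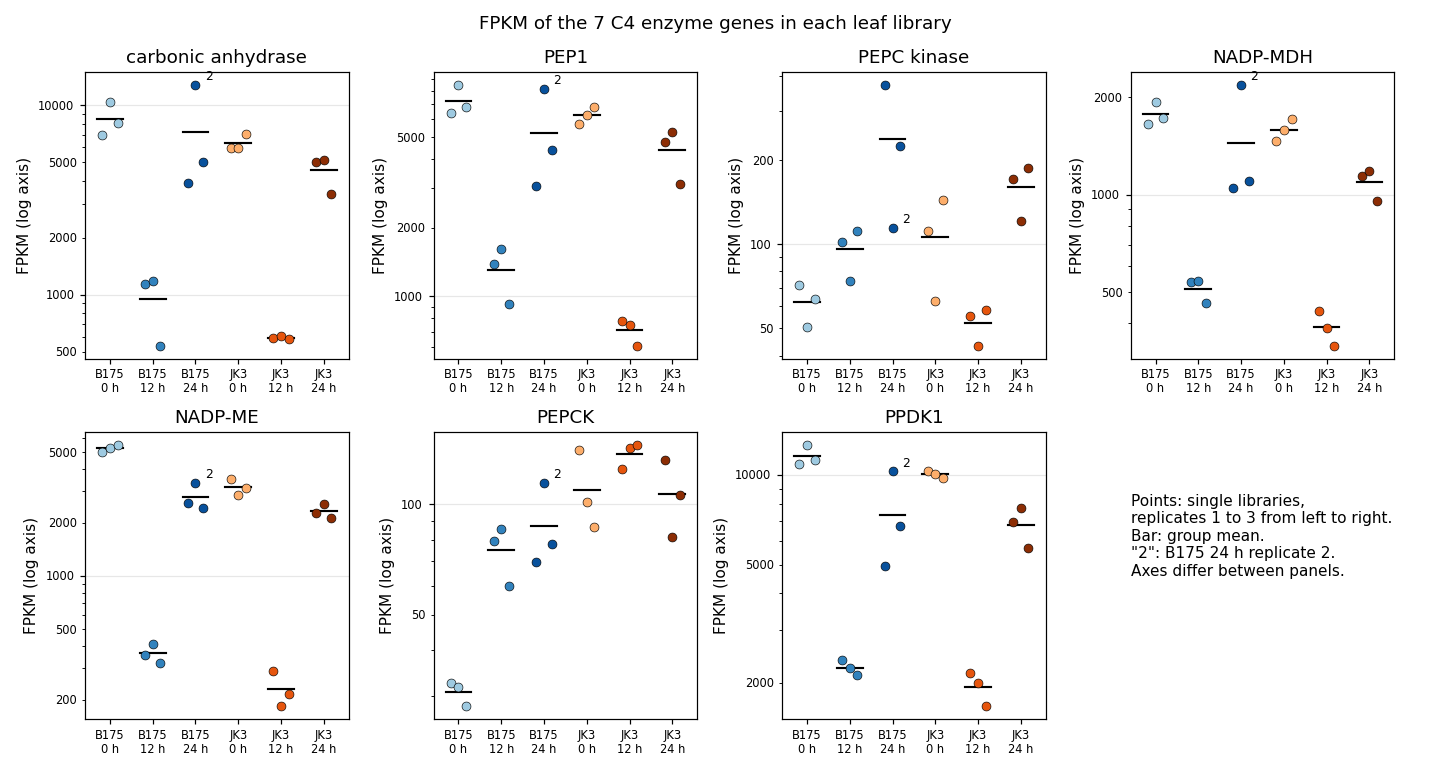
FPKM (log axis, 1 panel per gene) of the 7 C4 enzyme genes in the 18 libraries. Points are libraries and bars group means (n = 3). The 5 abundant enzymes drop at 12 h and are higher again at 24 h, though below 0 h in every J24 library, while PEPC kinase and PEPCK follow other courses, and B24 replicate 2 (marked 2) lies above the other B24 libraries except for PEPC kinase.

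At 12 h, the genes of 5 enzymes of the cycle were strongly down-regulated in both varieties, and PEPC kinase and PEPCK were not. A gene was called at an absolute log2 fold change above 1 and a limma adjusted p under 0.05. In B12 vs B0, 5 of the 7 genes were down-regulated (9.81% of all 23824 genes tested were) and 1 was up-regulated (28% of all genes). In J12 vs J0, 5 of the 7 were down-regulated (7.67% of all genes), and limma and voom each called 0 as up-regulated (24% of all genes were by limma). Voom called 6 of the 7 as down-regulated, the same 5 and PEPC kinase. These 6 also had an unadjusted p under 0.05 in limma, all with negative log2 fold changes. Over all genes tested, the median change was 0.43 in B12 vs B0 and 0.37 in J12 vs J0 on the log2 scale. Scaling the libraries by the median ratio brought these medians to 0.0091 and 0.0075, and the up-regulated share of the calls from 74.1% to 48.9% and from 75.7% to 50.6%. As the members were chosen with earlier results known, their counts beside the shares of all genes are a description. The 5 decreases were called under each of the alternatives run.

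Carbonic anhydrase supplies bicarbonate to the first carboxylation. Its FPKM were 6921, 10371 and 8100 in B0 and 1138, 1184 and 537 in B12, so the groups did not overlap. The log2 fold change was -3.22 (SE 0.40, limma adjusted p = 3.55e-06), and the mean was 8.88-fold lower at 12 h. In JK3 the FPKM were 5979, 5977 and 7050 at 0 h and 592, 601 and 583 at 12 h. The 3 replicates of J12 lay close together, and the log2 fold change was -3.41 (SE 0.40, limma adjusted p = 2.65e-06), with a 10.7-fold lower mean. The change in JK3 differed from that in B175 by -0.20 (SE 0.56), which did not pass the interaction test (limma adjusted p = 0.889).

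PEP1 encodes the carboxylase that fixes bicarbonate in the mesophyll. In B175 its FPKM fell from 6389, 8509 and 6772 in B0 to 1382, 1616 and 926 in B12 (log2 fold change -2.49, SE 0.34, limma adjusted p = 1.01e-05). In JK3 they fell from 5733, 6297 and 6775 in J0 to 776, 747 and 607 in J12 (log2 fold change -3.15, SE 0.34, limma adjusted p = 1.20e-06). All J12 libraries were below all B12 libraries. Neither J12 vs B12 (log2 fold change -0.85, limma adjusted p = 0.139) nor the interaction (-0.65, limma adjusted p = 0.490) passed the test.

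PEPC kinase, a small protein kinase whose own expression sets its activity, had smaller log2 fold changes at 12 h than its substrate PEP1, with opposite signs in the varieties. Its FPKM were 71.7, 50.7 and 63.9 in B0 and 102, 73.8 and 111 in B12 (log2 fold change 0.61, SE 0.35, limma adjusted p = 0.148). In JK3 they were 111, 62.9 and 144 in J0 and 55.6, 43.4 and 58.2 in J12 (log2 fold change -0.94, SE 0.35, limma adjusted p = 0.0350), short of the fold limit. The B12 libraries all lay above B0 and the J12 libraries all below J0. The interaction was -1.55 (SE 0.50, limma adjusted p = 0.0841) and did not pass. These values depended on the processing: with median-ratio scaling the change was -0.037 in B175 and -1.50 in JK3, the latter called, and the JK3 change was also called with quantile normalization (-1.25), with voom (-1.52) and without J0 replicate 2 (-1.27).

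NADP-MDH makes the malate that carries the carbon to the bundle sheath, and it had the smallest of the 5 decreases in each variety. The FPKM were 1656, 1940 and 1731 in B0 and 535, 540 and 461 in B12 (log2 fold change -1.79, SE 0.24, limma adjusted p = 6.83e-06). In JK3 they were 1468, 1584 and 1712 at 0 h and 438, 387 and 341 at 12 h (log2 fold change -2.03, SE 0.24, limma adjusted p = 2.54e-06). The groups did not overlap in either variety.

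NADP-ME, the enzyme that releases carbon dioxide beside Rubisco, had the largest of the 5 decreases in each variety. Its FPKM were 5031, 5252 and 5469 in B0 and 359, 410 and 323 in B12, a 14.4-fold lower mean (log2 fold change -3.85, SE 0.21, limma adjusted p = 3.56e-10). In JK3 they were 3509, 2868 and 3128 in J0 and 289, 184 and 216 in J12, a 13.8-fold lower mean (log2 fold change -3.80, SE 0.21, limma adjusted p = 4.98e-10). The decreases of the 2 varieties lay 0.05 apart on the log2 scale (interaction, SE 0.29, limma adjusted p = 0.947). Its rank among all genes went from 9 to 18 at 0 h to 361 to 939 at 12 h.

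PEPCK alone of the 7 was up-regulated at 12 h, and it was called in B175 and not in JK3. The FPKM were 32.5, 31.8 and 28.2 in B0 and 79.1, 85.7 and 59.95 in B12, groups that did not overlap (log2 fold change 1.24, SE 0.22, limma adjusted p = 0.000134). The increase stayed above 0 but was no longer past the fold limit with median-ratio scaling (0.60) and quantile normalization (0.85). In JK3 the FPKM were 141, 101 and 86.5 in J0 and 124, 142 and 145 in J12, which overlapped (log2 fold change 0.35, limma adjusted p = 0.198, and -0.22 with median-ratio scaling). The difference between the varieties in this change, -0.89 on the log2 scale, did not pass the test (SE 0.31, limma adjusted p = 0.107).

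PPDK1, which regenerates the acceptor of the first fixation, had close log2 fold changes in the varieties (interaction -0.014, SE 0.41, limma adjusted p = 0.989). The FPKM were 10926, 12598 and 11273 in B0 and 2391, 2245 and 2118 in B12 (log2 fold change -2.36, SE 0.29, limma adjusted p = 3.64e-06). In JK3 they were 10298, 10050 and 9776 in J0 and 2164, 1992 and 1672 in J12 (log2 fold change -2.38, SE 0.29, limma adjusted p = 4.82e-06). The means were 5.15-fold and 5.17-fold lower at 12 h. PPDK1 was still the most abundant of the 7 at 12 h, at ranks 20 to 31 of all genes.

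**Figure D2:**
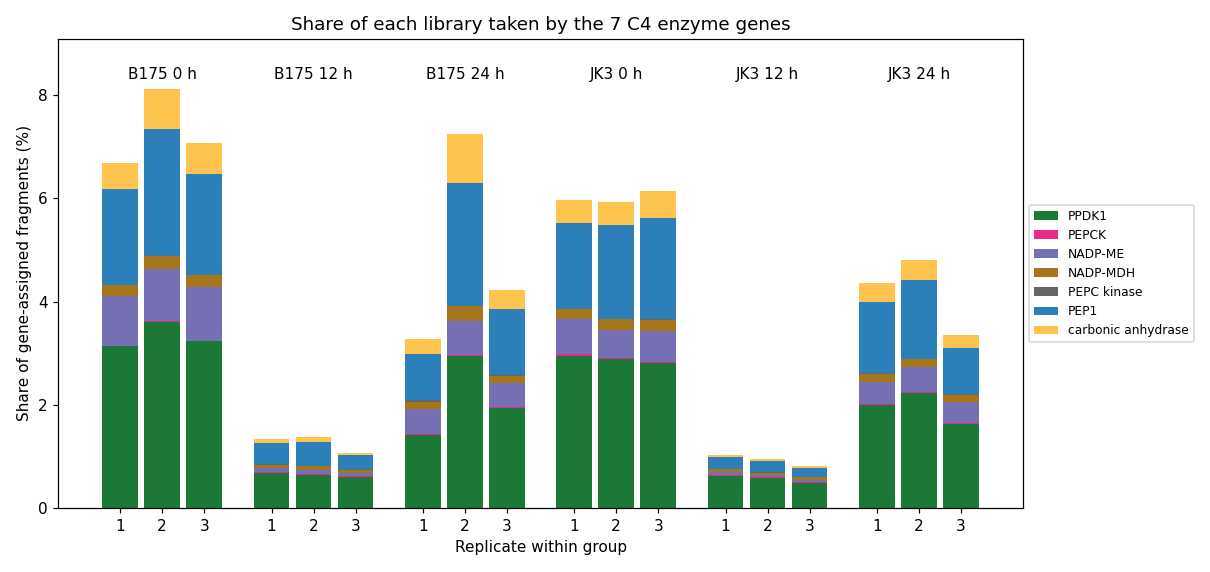
Share of gene-assigned fragments (%, stacked bars from 0) taken by the 7 genes in each library. PPDK1 and PEP1 make up most of each bar, and the total of 6.69% to 8.12% in B0 stands at 1.06% to 1.37% in B12, with B24 replicate 2 (7.24%) far above the other B24 libraries (3.27% and 4.23%).

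The share of all fragments taken by the 7 genes was 1.06% to 1.37% in B12 and 0.819% to 1.03% in J12. Leaf markers outside the C4 cycle moved with it. The summed FPKM of the chlorophyll a-b binding protein genes was 3070 to 5735 in B12, and that of the Rubisco activase genes was 169 to 221 in B12 against 2476 to 3113 in B0. In JK3 the chlorophyll a-b binding protein sum was 9475 to 10916 in J0 and 1429 to 1515 in J12. GIGANTEA, a clock gene with a strong daily rhythm, had a mean FPKM of 3.62 in B0, 305 in B12 and 26.3 in B24, and of 4.79, 273 and 22.8 in J0, J12 and J24. The 5 PRR (response regulator-like) clock genes did not move alike. On the log2 scale PRR1 changed by 7.19 in B12 vs B0 and 7.09 in J12 vs J0, and PRR95 (Seita.8G040100) by 1.38 and 1.41. PRR73 (1.31 and 0.90) and PRR95 (Seita.2G286100, 1.01 and 0.28) were called in B175 only. PRR37 (0.32 and -0.053) was called in neither variety. The part of time of day in the changes of the C4 genes was not tested.

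By 24 h the levels of the abundant enzymes had risen again in both varieties. The summed FPKM of the 7 genes was 34406 ± 3952 (SD, n = 3) in B0, 5560 ± 889 in B12 and 24329 ± 11212 in B24, and 27617 ± 925, 4052 ± 411 and 19380 ± 3398 in J0, J12 and J24. The B24 mean was 17962 without B24 replicate 2. In B24 vs B12, 6 of the 7 genes were up-regulated (7.86% of all genes were), and in J24 vs J12 the same 6 (7.30% of all genes). The exception was PEPCK. The same 6 were called in B24 vs B12 without B24 replicate 2, with log2 fold changes of 1.07 (NADP-MDH) to 2.78 (NADP-ME). NADP-ME had the largest log2 fold change, with 2.93 in B24 vs B12 and 3.35 in J24 vs J12 (SE 0.21, limma adjusted p = 1.31e-08 and 3.00e-09). NADP-MDH had the smallest of the abundant enzymes, with 1.41 and 1.49. The increase of PEPC kinase in B24 vs B12 (1.16, SE 0.35, limma adjusted p = 0.0122) was not called when only B12 and B24 were fitted (limma adjusted p = 0.0704), without B12 replicate 2 (0.99) or without B24 replicate 1 (0.76), and its increase in J24 vs J12 was 1.58 (limma adjusted p = 0.00161).

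The FPKM of the abundant enzymes at 24 h were spread widely in B175. Carbonic anhydrase had 3862, 12798 and 5004 FPKM in B24, and PEP1 had 3074, 8204 and 4393. NADP-MDH had 1050, 2184 and 1103, NADP-ME 2583, 3357 and 2420, and PPDK1 4927, 10290 and 6763. In each of these the highest value was that of B24 replicate 2, which lay above the B0 mean for carbonic anhydrase, PEP1 and NADP-MDH. The J24 libraries lay closer together, with 5036, 5161 and 3413 FPKM for carbonic anhydrase and 6937, 7755 and 5685 for PPDK1.

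In B24 vs B0, 2 of the 7 genes were called, both up-regulated (10.2% of all genes were, and 6.02% were down-regulated). They were PEPC kinase and PEPCK. PEPC kinase had 372, 115 and 225 FPKM in B24, all above the highest B0 value of 71.7 (log2 fold change 1.77, SE 0.35, limma adjusted p = 0.00130). PEPCK had 69.5, 114 and 77.7 FPKM in B24, also above all of B0 (log2 fold change 1.44, SE 0.22, limma adjusted p = 0.000150). Without B24 replicate 2 the log2 fold changes were 2.22 and 1.23, both still called.

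The other 5 enzymes had log2 fold changes of -0.38 (NADP-MDH) to -0.93 (NADP-ME) in B24 vs B0, and none was called. NADP-ME had an adjusted p below the limit (limma adjusted p = 0.00284) with a change short of the fold limit. Without B24 replicate 2, NADP-ME (-1.07) and PPDK1 (-1.004, limma adjusted p = 0.00588) were called as down-regulated, so that 4 of the 7 genes were called. PEP1 (-0.96, limma adjusted p = 0.0171), carbonic anhydrase (-0.92, 0.0328) and NADP-MDH (-0.72, 0.00329) then passed the p limit but not the fold limit. NADP-ME was also called with median-ratio scaling (-1.11), quantile normalization (-1.07) and voom (-1.11).

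In J24 vs J0, limma called 0 of the 7 genes at an adjusted p under 0.05 and an absolute log2 fold change above 1 (7.42% of all genes were called), as did voom, and 2 of the 7 (NADP-ME and NADP-MDH) had an unadjusted p under 0.05. The 5 abundant enzymes had log2 fold changes of -0.45 (NADP-ME) to -0.58 (PPDK1), with limma adjusted p of 0.126 to 0.425. In all 5 the highest J24 library lay below the lowest J0 library. The FPKM of PEPC kinase were 171, 121 and 188 in J24 (log2 fold change 0.64, limma adjusted p = 0.233). PEPCK had 131, 81.3 and 106 FPKM in J24, which overlapped with J0 (log2 fold change -0.038, limma adjusted p = 0.940).

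**Figure D3:**
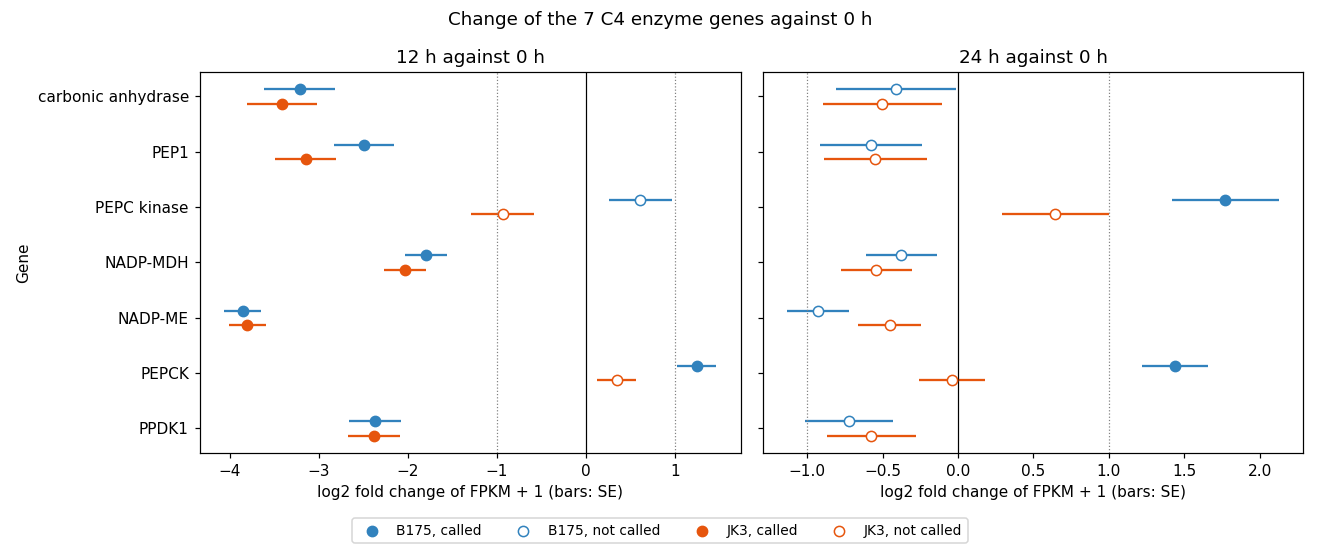
The log2 fold change (x axis, bars show the SE) of the 7 genes at 12 h and 24 h against 0 h in B175 (blue) and JK3 (orange). Filled points were called, and dotted lines mark the fold limit. At 12 h 5 genes lie between -1.79 and -3.85 in both varieties, and at 24 h only PEPC kinase and PEPCK in B175 were called.

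Between the varieties, the clearest difference was in PEPCK. Before treatment it had 141, 101 and 86.5 FPKM in J0 against 32.5, 31.8 and 28.2 in B0, and it was the only called gene of the 7 in J0 vs B0 (log2 fold change 1.77, SE 0.22, limma adjusted p = 3.64e-05), where 12.8% of all genes were called. The mean was 3.55-fold higher in JK3. At 12 h the log2 fold change in J12 vs B12 was 0.87 (limma adjusted p = 0.0171), short of the fold limit, and limma and voom each called 0 of the 7 genes (6.35% of all genes were called by limma), with an unadjusted p under 0.05 for 4. Of the other genes, NADP-ME was lower in JK3 at 0 h (-0.73, limma adjusted p = 0.0160) and at 12 h (-0.68, limma adjusted p = 0.0470), both short of the fold limit. At 24 h limma called 0 of the 7 in J24 vs B24 (4.55% of all genes were called), with an unadjusted p under 0.05 for 0 and 0 called by voom, and with log2 fold changes between -0.49 (carbonic anhydrase) and 0.29 (PEPCK). Leaving out B24 replicate 2 gave log2 fold changes between -0.88 (PEPC kinase) and 0.50 (PEPCK), with limma adjusted p of 0.144 to 0.988.

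The interaction tested whether the change over time differed between the varieties. Between 0 and 12 h limma called 0 of the 7 genes at an adjusted p under 0.05 (5.87% of all genes were called), with an unadjusted p under 0.05 for PEPC kinase and PEPCK and 0 called by voom. PEPC kinase was called with the replicate number as a block (limma adjusted p = 0.0114), with the 4 groups concerned fitted alone (0.0292) and without J0 replicate 2 (-1.88, 0.0378). Between 0 and 24 h it called PEPCK (2.52% of all genes were called), whose change was 1.48 lower in JK3 than in B175 on the log2 scale (SE 0.31, limma adjusted p = 0.0183). The level at 24 h was near that of 0 h in JK3 and higher than it in B175, from the lower start given above. This call was lost when only the 4 groups concerned were fitted (limma adjusted p = 0.0689), without B0 replicate 3 (0.0571) and without J24 replicate 2 (0.0554). Without B24 replicate 2 PEPC kinase was called as well (-1.57, limma adjusted p = 0.0329).

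Ratios within a library do not depend on how the library was scaled, and they showed that the enzymes did not fall in step. The ratio of PEP1 to NADP-ME was 1.37 in B0 and 3.52 in B12, and 1.98 in J0 and 3.13 in J12. On the log2 scale it was 1.01 higher at 12 h over both varieties (exact permutation test within varieties, two-sided, p = 0.005, the smallest this design can give, adjusted p = 0.0112 over 18 tests). PPDK1 to NADP-ME was 1.46 higher at 12 h, with a ratio of 2.21 in B0, 6.21 in B12, 3.18 in J0 and 8.57 in J12 (same exact test and adjusted p). It was also 0.40 higher in JK3 than in B175 over the 3 times (exact permutation test within times, p = 0.00225, adjusted p = 0.0112). This difference was 0.53, 0.46 and 0.20 at 0, 12 and 24 h, with overlap of the varieties at 24 h.

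NADP-MDH rose against PEP1 at 12 h, by 0.90 on the log2 scale (exact permutation p = 0.005, adjusted p = 0.0112), from 0.247 to 0.401 in B175 and from 0.253 to 0.548 in JK3. Carbonic anhydrase fell by 0.50 against PEP1 (exact permutation p = 0.01, adjusted p = 0.02), although the J0 and J12 libraries overlapped. At 24 h none of these 4 ratios between abundant enzymes differed from 0 h by the exact permutation test (adjusted p of 0.335 to 0.735).

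The ratios of the 2 less abundant genes to their partners changed most at 12 h. The partners had the larger log2 fold changes in size, as given above. The FPKM of PEPCK were 0.00587 of those of NADP-ME in B0, 0.205 in B12 and 0.0309 in B24, and 0.0339, 0.605 and 0.0453 in J0, J12 and J24. The log2 ratio was 4.64 higher at 12 h (exact permutation p = 0.005, adjusted p = 0.0112), 1.41 higher at 24 h (p = 0.015, adjusted p = 0.027) and 1.55 higher in JK3 than in B175 (p = 0.00075, adjusted p = 0.0112). At 24 h it was 2.40 higher than at 0 h in B175 and 0.42 higher in JK3, where J0 and J24 overlapped. The variety difference was 2.53, 1.57 and 0.55 at 0, 12 and 24 h, with overlap at 24 h. In J12 the highest single ratio of PEPCK to NADP-ME was 0.771. PEPC kinase to PEP1 was 2.65 higher at 12 h and 1.78 higher at 24 h (exact permutation p = 0.005 for both, adjusted p = 0.0112), and the latter was not called without B0 replicate 2 (1.65, adjusted p = 0.063).

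**Figure D4:**
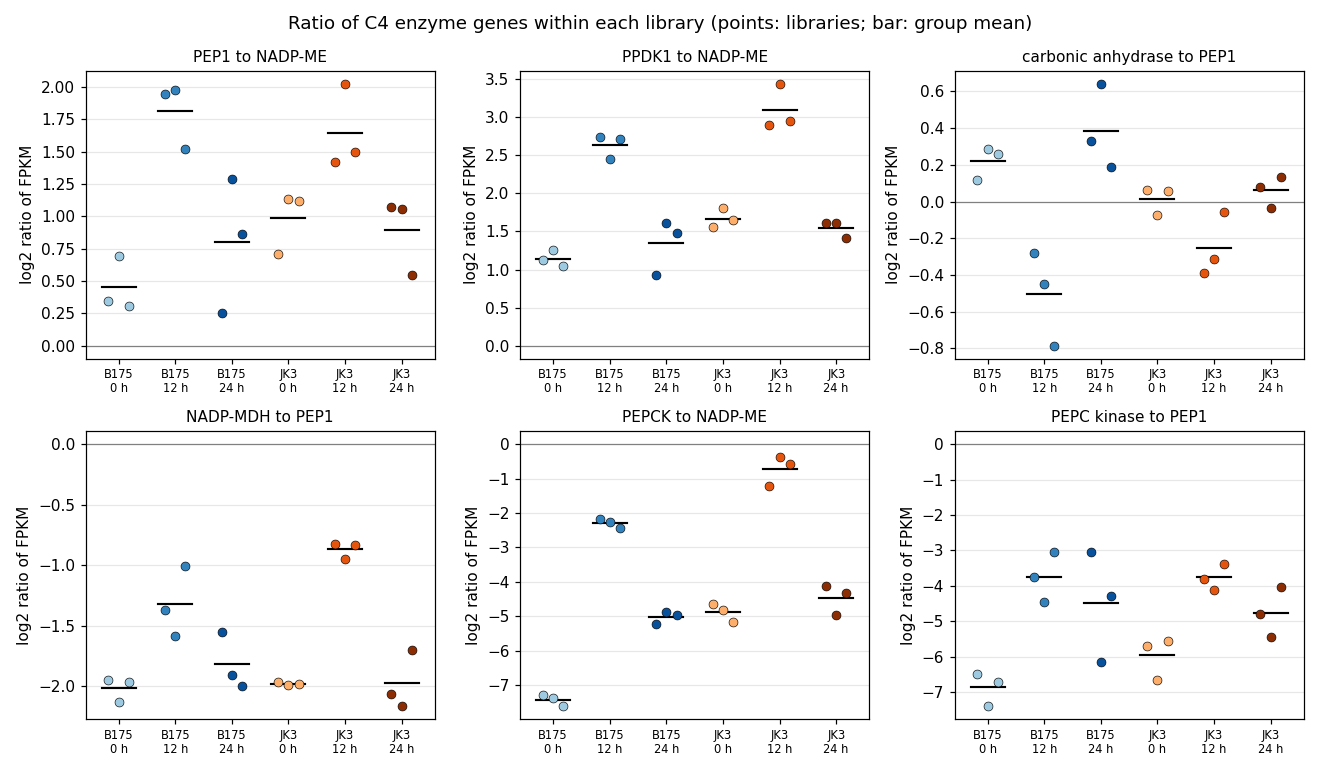
The log2 ratio of FPKM between pairs of the 7 genes in each library (points) with the group mean (bar, n = 3). At 12 h the ratios to NADP-ME are raised in both varieties, most of all PEPCK to NADP-ME, by 4.64 over both varieties, and carbonic anhydrase to PEP1 is lowered by 0.50.

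Other genes of the same enzyme families were compared, with the PPDK regulatory protein and the NAD-dependent malic enzymes added, 29 of which were tested. In B12 vs B0, 6 of them were up-regulated and 2 down-regulated (28% and 9.81% of all genes were), with a median log2 fold change of 0.46 against 0.43 for all genes. In J12 vs J0, 7 were up-regulated and 2 down-regulated (24% and 7.67% of all genes), with a median of 0.26 against 0.37 for all genes. With median-ratio scaling the numbers were 2 up-regulated and 3 down-regulated in B175 (15.3% and 16% of all genes), and 2 and 5 in JK3 (12.7% and 12.4%). At 12 h the genes of the abundant enzymes made up less of the FPKM of their families. NADP-ME went from 96.6% in B0 to 43.8% in B12 and from 92.4% in J0 to 32.1% in J12. Carbonic anhydrase went from 95.4% to 63.5% and from 91.4% to 46.2%. PEP1 kept 86.9% of its family in B12 and 80.0% in J12, and PPDK1 at least 99.7% in each group. NADP-ME and NADP-MDH were chosen by their mean FPKM over all libraries, so their high share at 0 h partly follows from the rule.

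Of the other malic enzymes, Seita.5G301800, which is annotated without a chloroplast label, had 50.5 ± 13.9 FPKM (SD, n = 3) in B0 and 276 ± 73.4 in B12 (log2 fold change 2.43, SE 0.30, limma adjusted p = 3.44e-06), and 140 ± 15.4 in J0 and 324 ± 16.3 in J12 (1.21, limma adjusted p = 0.00281). In J12 its level was above that of the main NADP-ME gene, 230 ± 54.2. The JK3 change was not called with median-ratio scaling (0.64). ME1 (Seita.5G314300), chosen after its values were seen, had 0.0687 ± 0.0269 FPKM in B0 and 94.0 ± 44.2 in B12, and 3.83 ± 0.381 in J0 and 75.5 ± 52.5 in J12. Its log2 fold changes were 6.37 and 3.77 (SE 0.65, limma adjusted p = 4.61e-07 and 0.000139), and at 24 h against 0 h they were 7.02 in B175 (7.95 without B24 replicate 2) and 4.37 in JK3. The value in B175 depends on the pseudocount, as the B0 level is near 0. ME6 (Seita.3G284800), a chloroplastic form, was not called at 12 h and had 123 FPKM in B0, 86.6 in B12, 106 in J0 and 68.9 in J12.

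Among the other PEPC genes, Seita.1G020700 had 43.1 ± 5.09 FPKM in B0 and 123 ± 9.02 in B12 (log2 fold change 1.49, SE 0.21, limma adjusted p = 1.63e-05), and 58.7 ± 13.5 in J0 and 120 ± 9.68 in J12 (1.04, limma adjusted p = 0.000655). With median-ratio scaling the changes were 0.84 and 0.47, not called, and the JK3 change was also not called with quantile normalization (0.80), without J0 replicate 3 (0.89) or without J12 replicate 1 (0.97). Seita.2G173700 was not called at 12 h and was up-regulated at 24 h, from 22.2 FPKM in B0 to 93.6 in B24 (log2 fold change 1.80, limma adjusted p = 0.00134) and from 47.8 in J0 to 122 in J24 (1.35, limma adjusted p = 0.0198). The B175 change was 2.43 without B24 replicate 2. The call in B175 was lost when B0 and B24 were fitted alone (limma adjusted p = 0.0573), and that in JK3 without J0 replicate 3 or without J24 replicate 1 or 3.

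The other NADP-MDH gene, Seita.2G137100, rose at 12 h in JK3 from 15.7 ± 0.290 to 71.6 ± 15.0 FPKM (log2 fold change 2.10, SE 0.40, limma adjusted p = 0.000342). In B175 it went from 55.3 ± 12.6 to 139 ± 61.0 (1.22, limma adjusted p = 0.0143), and this call was lost with median-ratio scaling (0.57), with quantile normalization (0.90) and without B12 replicate 1 or 2. The other genes of PEPC kinase, Seita.1G358900 and Seita.7G167900, had group means of 1.73 to 5.31 FPKM and were not called at 12 h. PPDK2 (Seita.9G354600) had group means of 2.66 to 8.80 FPKM and was not called at 12 h either. The PPDK regulatory protein PDRP1 (Seita.2G338600), a bifunctional kinase and phosphatase that switches PPDK off and on, had group means between 214 and 297 FPKM and was not called at 12 h in either variety.

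BCA5 (Seita.2G235500), a chloroplastic beta carbonic anhydrase, had 81.3 FPKM in B0 and 178 in B12 (log2 fold change 1.09, SE 0.20, limma adjusted p = 0.000193), a call lost with median-ratio scaling (0.44), with quantile normalization (0.78) and without B12 replicate 3 (0.92). In JK3 it had 179 FPKM in J0 and 143 in J12 (-0.34). At 24 h it was up-regulated in B24 vs B0, to 242 FPKM (1.56, limma adjusted p = 3.40e-05, and 1.66 without B24 replicate 2). Seita.5G240100, whose identifier directly follows that of the main carbonic anhydrase gene, had 96.8 FPKM in B0 and 86.0 in B12, 225 in B24, and 157, 180 and 284 in J0, J12 and J24. It was called in B24 vs B0 (1.18, limma adjusted p = 0.000471, and 1.44 without B24 replicate 2) but not with quantile normalization (0.89) or median-ratio scaling (0.996), and not in the 12 h comparisons or J24 vs J0. Reads of such neighbouring copies can be shared, which would make the values of the lower gene uncertain, and this was not tested. NAD-dependent malic enzymes, which serve another C4 type, had group means of 64.4 to 92.5 FPKM (Seita.9G200600) and 26.7 to 46.9 (Seita.2G322000) and were not called at 12 h.

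**Figure D5:**
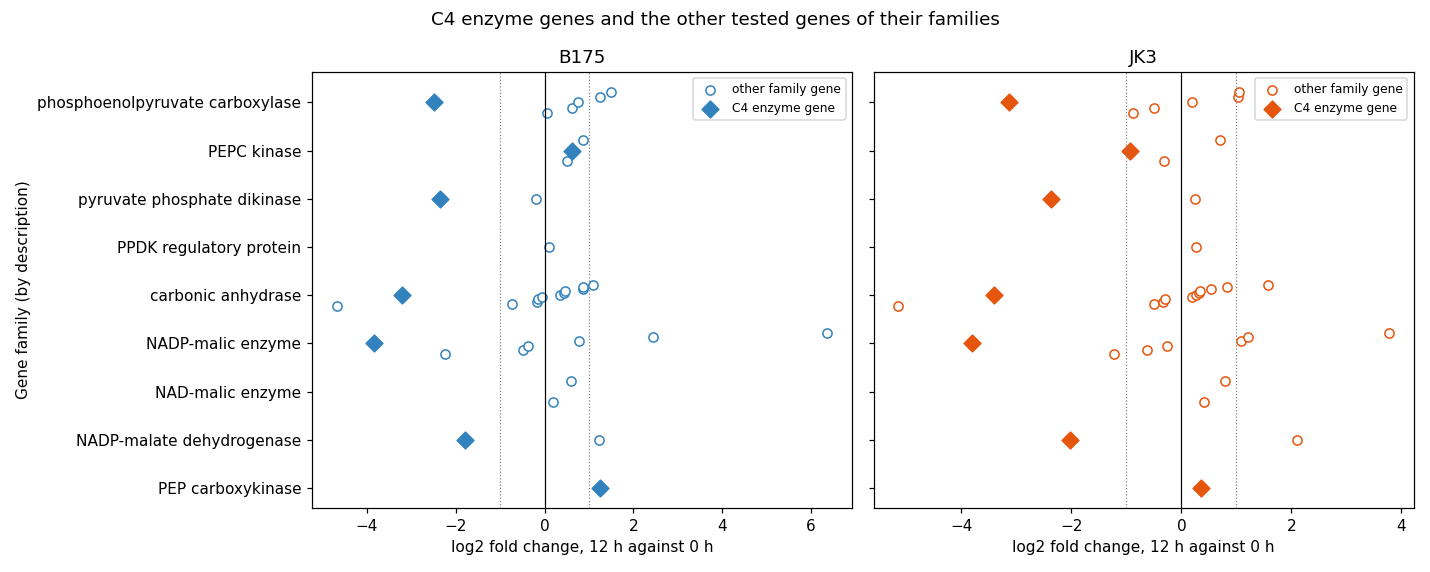
The log2 fold change at 12 h against 0 h (x axis) of the 7 C4 enzyme genes (diamonds) and the 29 other tested genes of their families (open circles), in B175 and JK3. The open circles include the PPDK regulatory protein and the NAD-dependent malic enzymes. Dotted lines mark the fold limit. The main NADP-ME gene lies at -3.85 and -3.80, while ME1 of the same family lies at 6.37 and 3.77. ME1 was chosen after its values were seen, and its value in B175 depends on the pseudocount.

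The transporters and supporting enzymes of the cycle gave 45 tested genes. In B12 vs B0, 16 of them were up-regulated and 10 down-regulated (28% and 9.81% of all genes), with a median log2 fold change of 0.21 against 0.43 for all genes. In J12 vs J0, 16 were up-regulated and 7 down-regulated (24% and 7.67% of all genes), with a median of 0.32 against 0.37. With median-ratio scaling the numbers were 14 and 18 in B175 (15.3% and 16% of all genes) and 11 and 13 in JK3 (12.7% and 12.4%). Together with the family genes, 13 of 74 were up-regulated and 9 down-regulated in B24 vs B0 (10.2% and 6.02% of all genes). Without B24 replicate 2 the numbers were 18 and 16 (14.2% and 8.61% of all genes), and in J24 vs J0 they were 7 and 2 (5.36% and 2.06%).

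The most abundant gene of several of these descriptions fell with the C4 enzymes at 12 h. BASS2 (Seita.5G242900), the cotransporter that brings pyruvate into the chloroplast, had 4566 FPKM in B0 and 598 in B12, and 3331 in J0 and 400 in J12 (log2 fold changes -3.01 and -3.05, SE 0.29, limma adjusted p = 2.59e-07 and 3.14e-07). The chloroplastic adenylate kinase Seita.6G009100, of the kind that handles the AMP made by PPDK, changed by -3.32 and -2.95 (SE 0.28, limma adjusted p = 6.25e-08 and 3.35e-07). DIT1 (Seita.3G350700), a chloroplast transporter of oxaloacetate and malate, changed by -1.70 and -1.28 (SE 0.33, limma adjusted p = 0.000365 and 0.00422). The alanine aminotransferase Seita.9G251000 changed by -1.65 and -1.15 (SE 0.24, limma adjusted p = 1.79e-05 and 0.000709), the latter not called without J12 replicate 2 (-0.81).

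Other leading genes of this group were not called at 12 h. The triose phosphate translocator TPT (Seita.5G002900) had log2 fold changes of -0.92 and -0.78 (SE 0.36), both called with median-ratio scaling (-1.57 and -1.35), and that in B175 also without B12 replicate 1 (-1.12) or 2 (-1.08). The cytosolic aspartate aminotransferase Seita.5G326000 had 112 FPKM in B0 and 225 in B12, and 366 in J0 and 249 in J12 (log2 fold changes 0.99 and -0.56, SE 0.26). The B175 change lay just under the fold limit and passed it when any of 4 single libraries was left out (1.003 to 1.09), and the JK3 change was called with median-ratio scaling (-1.13). PPT2 (Seita.6G118800), a transporter of phosphoenolpyruvate, had 306 FPKM in B0 and 369 in B12, and 135 in J0 and 230 in J12. The pyrophosphatase PPA6 (Seita.1G333200) had 816 and 569 FPKM in B0 and B12, and 473 and 433 in J0 and J12.

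Across the 18 libraries, the log2(FPKM + 1) of the 5 abundant enzymes ran closely together, with Pearson r of 0.970 to 0.990 between any 2 of them. PEPC kinase had r of 0.19 to 0.33 with these 5, and PEPCK -0.38 to -0.48. The libraries share the step between 0 and 12 h, so these values are a description. Of 11587 genes averaging 10 FPKM or more, the nearest to carbonic anhydrase was BASS2 (r = 0.992) and then PEP1 (0.990). CAS (Seita.5G413400), annotated as a chloroplastic calcium sensing receptor, was the nearest to PEP1 (0.992) and to NADP-MDH (0.994), followed by carbonic anhydrase for PEP1 and by GPX1 (Seita.4G046700, 0.992), a glutathione peroxidase, for NADP-MDH.

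NADP-ME was nearest to Seita.1G203000, annotated as chloroplastic thioredoxin-like 4 (r = 0.996), and to UGE-2 (Seita.6G130900, 0.993), a UDP-glucose 4-epimerase. PPDK1 was nearest to RPS1 (Seita.9G014000, 0.990), a chloroplastic ribosomal protein, and to the adenylate kinase Seita.6G109600 (0.990). The values for PEPC kinase and PEPCK were lower. PEPC kinase was nearest to a phosphoglycerate mutase (Seita.9G416100, r = 0.940), whose mean FPKM was 3.78 in B0 and 78.0 in B24, and to ATS3A (Seita.3G102200, 0.938). PEPCK was nearest to CSLH1 (Seita.7G098500, 0.901), a cellulose synthase-like gene, and to the gene Seita.5G110600, which has no description (0.896).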

How the data were processed

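RNA from leaves was sequenced in 18 libraries of 6 groups. The authors deposited 1 table of FPKM for 29108 genes. The sample records name fastp, HISAT2, HTSeq, R 3.2.0 and DESeq2 without their roles. Whole fragments were recovered from the steps of the FPKM for 100% of the genes (tolerance 0.02, slightly wider for high counts). The recovered lengths were multiples of 3 for 96.4% of the genes averaging 1 FPKM or more. Library totals were set so that lengths fell on multiples of 3, so this share does not by itself show coding lengths.

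The 23824 genes that averaged 0.1 FPKM or more, all 7 members included, were fitted as log2(FPKM + 1) with limma 3.58.1 in R 4.3.3 (6 group means, variance trend). P-values were two-sided and adjusted by Benjamini-Hochberg over these genes. Fold changes on this scale understate those of low genes. A call required an absolute log2 fold change above 1 and an adjusted p below 0.05, or, for the interaction, the latter alone. Ratios within libraries were tested by exact permutation within varieties or times (Python 3.11.15, numpy 2.4.6, pandas 2.3.3). The fitting code was also run on simulated data. These had few and balanced changes and an even spread between replicates, unlike the data here.

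Alternatives were another pseudocount (0.1), no filter or one at a mean of 1 FPKM, median-ratio scaling, quantile normalization, a block of replicate numbers, fitting the compared groups by themselves and leaving out each library. Limma voom on the recovered fragments with median-ratio scaling, and pathway counts without B24 replicate 2, were added after the data were seen. Named genes are the 7 members, the 3 of highest mean FPKM in each family (member included), the highest of each supporting description and the 2 most like each member. ME1 lies outside these rules and was named after its values were seen, and clock and tissue markers were picked by description. Members and lists were chosen with earlier results of these data known. Gene names are those of the deposited table. The 7 identifiers matched 0 entries of the RefSeq gene table used, so no position or sequence is given.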

Additional observations from a re-analysis of the deposited data

Results flagged for a closer look

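The difference between the varieties in the change of PEPCK from 0 to 24 h was singled out because the interaction of variety and time passed the test. The change was -1.48 on the log2 scale (JK3 against B175, SE 0.31, limma adjusted p = 0.0183), from a log2 fold change of 1.44 in B24 vs B0 and -0.038 in J24 vs J0. Every B24 library was above every B0 library, and the J24 and J0 libraries overlapped. Over the alternatives the value was -1.64 to -1.27, with limma adjusted p of 0.0144 to 0.0689.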

How the results depend on the processing

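The calls of the 5 decreases at 12 h and of PEPCK and PEPC kinase in B24 vs B0 were made under every alternative run. The number of called genes of the 7 moved by over 1.5 times in B24 vs B0 and in both interactions. It moved by 1 gene in B12 vs B0 (5 with median-ratio scaling, quantile normalization and voom), in J12 vs J0 (6 with the same) and, with libraries left out, in B24 vs B12 (5 to 6) and J12 vs J0 (5 to 6). In B24 vs B0 it was 3 with median-ratio scaling, quantile normalization and voom, and 2 to 4 with libraries left out, 4 without B24 replicate 2. In the interaction from 0 to 12 h it was 1 (PEPC kinase) with the replicate block, 1 with the compared groups alone and 0 to 1 with libraries left out. In the interaction from 0 to 24 h it was 0 with the compared groups alone and 0 to 2 with libraries left out. Changes near 0 turned their sign: PEPC kinase in B12 vs B0 was -0.037 with median-ratio scaling and -0.039 with voom, PEPCK in J12 vs J0 -0.22 and -0.22, PEPCK in J24 vs J12 0.12 and 0.12, NADP-MDH in J0 vs B0 0.15 with quantile normalization, PEPCK in B24 vs B12 ranged from -0.012 (without B24 replicate 2) to 0.34 with libraries left out, and PEPCK in J24 vs J0 from -0.20 to 0.16 (without J0 replicate 1, and 0.14 without J24 replicate 2). With libraries left out, the log2 ratio of PPDK1 to NADP-ME at 24 h against 0 h ranged from -0.028 to 0.14, that of PEPC kinase to PEP1 at 24 h against 0 h from 1.42 to 2.199 and in JK3 against B175 from -0.069 to 0.45. The cause of these changes was not tested.

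With the replicate number as a block the exact permutation tests of the ratios have fewer arrangements, and all lost their calls: at 12 h PEP1 to NADP-ME (1.01), PPDK1 to NADP-ME (1.46), carbonic anhydrase to PEP1 (-0.50), NADP-MDH to PEP1 (0.90), PEPCK to NADP-ME (4.64) and PEPC kinase to PEP1 (2.65), at 24 h PEPC kinase to PEP1 (1.78), and in JK3 against B175 PPDK1 to NADP-ME (0.40) and PEPCK to NADP-ME (1.55) had an adjusted p of 0.0625, and PEPCK to NADP-ME at 24 h (1.41) one of 0.1125. Deviations of libraries with the same number had a mean r of -0.058 to 0.198 in the 9 comparisons of groups, and in none did all 3 pairs pass 0.1, so the numbers were not taken to pair the samples.

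Voom called 9159 genes in B12 vs B0 and 7586 in J12 vs J0, against 9015 and 7533 by limma on FPKM. Over all genes, the calls in J24 vs B24 went from 1085 to 448 with the compared groups alone and to 1654 without B24 replicate 3. In J24 vs J0 they went from 1767 to 1152 without J0 replicate 3 and to 1015 without J24 replicate 3. In the interaction from 0 to 12 h they went from 1398 to as few as 770 (without B0 replicate 3), and in that from 0 to 24 h from 600 to 235 with the compared groups alone, 382 with voom, 286 without B0 replicate 3 and 1931 without B24 replicate 2. The up-regulated share of the calls went with median-ratio scaling from 29.5% to 52.9% in B24 vs B12, from 28% to 54.1% in J24 vs J12, from 62.9% to 49.4% in B24 vs B0 and from 20.7% to 34.8% in the interaction from 0 to 24 h. Of 606 fold changes under alternatives that are given only as levels or ranges, 58 changed sign. With 3 libraries a group, the spread between replicates and not depth limits these values.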
